A study of Arabidopsis thaliana with 8 samples.

Results

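The regions described here are 2405 ChIP-seq peaks of the transcriptional regulator CONSTANS (CO) that lay far from any annotated gene on the chromosome arms of Arabidopsis thaliana. They were chosen from the peaks of *SUC2::CO:CIT* replicate 1 in 2 steps. A peak was kept when it overlapped a peak of replicate 2 by at least 1 bp, which left 16861 shared peaks of 21054, and then when its summit, the position of highest fragment coverage, lay over 1000 bp from every gene or pseudogene of the TAIR10.1 RefSeq annotation. Summits in the central part of each chromosome were left out, in the ranges from 11.5 to 17.7 Mb of chromosome 1, 1.1 to 7.2 Mb of chromosome 2, 10.3 to 17.3 Mb of chromosome 3, 1.5 to 6.3 Mb of chromosome 4 and 9.0 to 16.0 Mb of chromosome 5. The 2405 distal arm peaks were 14.3% of the shared peaks and overlapped 2348 different peaks of replicate 2. The peak lists precede the reproducibility and blacklist filters of the study, which retained fewer peaks than the 16861 shared here.

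The study asked whether abscisic acid (ABA), a hormone of the response to water deficit, alters where CO sits on DNA. It compared *SUC2::CO:CIT* plants, which carry a fusion of CO with the fluorescent protein CITRINE in the Col-0 background, with *SUC2::CO:CIT aba1-6* plants, which carry the fusion in a mutant impaired in ABA synthesis. All of them expressed the fusion from the promoter of *SUC2*, which is active in phloem companion cells, and both genotypes carried the transgene of the same line, so that every comparison rests on 1 transgenic line. Each genotype had 2 ChIP libraries, pulled down with GFP-Trap nanobodies, and 2 input libraries, each from 5 g of whole seedlings grown under 16 h of light and 8 h of darkness. Companion cells are a small part of a seedling, and a low enrichment can reflect few cells with the fusion or little binding per cell, which peak lists cannot tell apart. No library from plants without the transgene was used here.

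CO is a B-box protein of the photoperiod pathway that, in the leaf vasculature under long days, activates *FLOWERING LOCUS T* (*FT*), the gene of the main florigen. It contacts DNA through its CCT domain together with NF-YB and NF-YC subunits, and the complex reads words with a TGTG core in the *FT* promoter, whereas the related NF-Y complex with an NF-YA subunit reads CCAAT. Distal regulatory DNA is known at *FT* itself, where blocks of sequence several kilobases from the coding region act on transcription and are thought to be brought near the promoter by looping.

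The sequences below are shown because they make visible the low GC content at the summits of the distal arm peaks and where TGTG words do and do not occur. Each is the top strand of 200 bp around the summit of replicate 1, from the RefSeq TAIR10.1 assembly, with TGTG, its reverse complement CACA, CCAAT and its reverse complement ATTGG in capitals. They are the strongest peak, the peaks past *WUS* and *PHB*, the 2 peaks upstream of *FT*, the peak upstream of *GI*, the strongest peak upstream of *NCED5* and a peak far upstream of *SUC2*.

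AT5G47940 to AT5G47950, chr5:19415472-19415671: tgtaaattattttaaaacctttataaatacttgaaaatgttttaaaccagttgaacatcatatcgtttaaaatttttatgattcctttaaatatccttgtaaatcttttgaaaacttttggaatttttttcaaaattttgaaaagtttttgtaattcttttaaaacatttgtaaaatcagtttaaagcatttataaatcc
AT2G17940 to WUS, chr2:7807508-7807707: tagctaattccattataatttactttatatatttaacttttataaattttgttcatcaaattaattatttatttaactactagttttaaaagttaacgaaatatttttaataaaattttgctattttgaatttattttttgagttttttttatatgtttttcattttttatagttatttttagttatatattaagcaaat
AT2G34700 to PHB, chr2:14636871-14637070: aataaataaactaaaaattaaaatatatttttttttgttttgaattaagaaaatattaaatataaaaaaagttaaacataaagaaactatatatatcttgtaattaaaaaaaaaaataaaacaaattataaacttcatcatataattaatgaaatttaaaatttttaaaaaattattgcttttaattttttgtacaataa
FAS1 to FT, outer, chr1:24325674-24325873: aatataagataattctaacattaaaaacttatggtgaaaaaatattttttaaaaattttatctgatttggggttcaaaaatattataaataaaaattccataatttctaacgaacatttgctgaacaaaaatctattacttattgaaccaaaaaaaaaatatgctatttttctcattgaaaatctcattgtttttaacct
FAS1 to FT, inner, chr1:24329400-24329599: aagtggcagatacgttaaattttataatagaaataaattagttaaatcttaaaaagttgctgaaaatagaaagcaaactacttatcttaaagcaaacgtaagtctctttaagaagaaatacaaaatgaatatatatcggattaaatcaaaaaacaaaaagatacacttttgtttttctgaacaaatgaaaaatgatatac
PAB3 to GI, chr1:8060416-8060615: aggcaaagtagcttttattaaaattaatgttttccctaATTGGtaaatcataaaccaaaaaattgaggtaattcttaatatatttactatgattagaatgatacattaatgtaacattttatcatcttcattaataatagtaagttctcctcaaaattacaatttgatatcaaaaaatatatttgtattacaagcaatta
AT1G30090 to NCED5, chr1:10568236-10568435: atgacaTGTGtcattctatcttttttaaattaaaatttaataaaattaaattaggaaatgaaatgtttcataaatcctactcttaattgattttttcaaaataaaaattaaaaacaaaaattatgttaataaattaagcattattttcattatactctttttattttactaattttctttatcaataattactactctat
SUC2 to AT1G22720, chr1:8042800-8042999: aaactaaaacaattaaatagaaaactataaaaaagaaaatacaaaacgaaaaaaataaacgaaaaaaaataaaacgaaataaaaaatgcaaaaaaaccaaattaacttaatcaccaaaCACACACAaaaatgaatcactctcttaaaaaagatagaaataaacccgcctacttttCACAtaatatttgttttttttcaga

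The GC content of these windows ran from 9.5% at the *PHB* peak to 23.0% at the inner *FT* peak. Marked words were absent from the 2 *FT* windows and from those of *WUS*, *PHB* and the strongest peak, whereas the *SUC2* window held 4 TGTG or CACA words.

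Enrichment at the distal arm peaks was modest and similar in both replicates. The fold enrichment divides the DNA fragments at the summit by those of the local background, after 1 is added to either number. Its median was 3.20 in replicate 1, with the middle 50% of peaks between 2.79 and 3.78, and 3.30 in replicate 2, between 2.79 and 3.80. The extremes were 1.83 and 8.54 in replicate 1 and 1.94 and 7.69 in replicate 2. In fragments, a median of 38 lay at the summit in either replicate, with a range of 23 to 103 in replicate 1 and 22 to 90 in replicate 2, over a genome-wide background of 11.2 and 10.8 fragments. Most of these summits therefore rested on a modest number of fragments, and intervals given below cover counting error only. Across the 2405 peaks the 2 fold enrichments had a Pearson correlation of 0.611 and a Spearman correlation of 0.547, against 0.643 and 0.584 over all shared peaks. Peaks are not independent replicates, and the points share the 2 libraries.

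**Figure D1:**
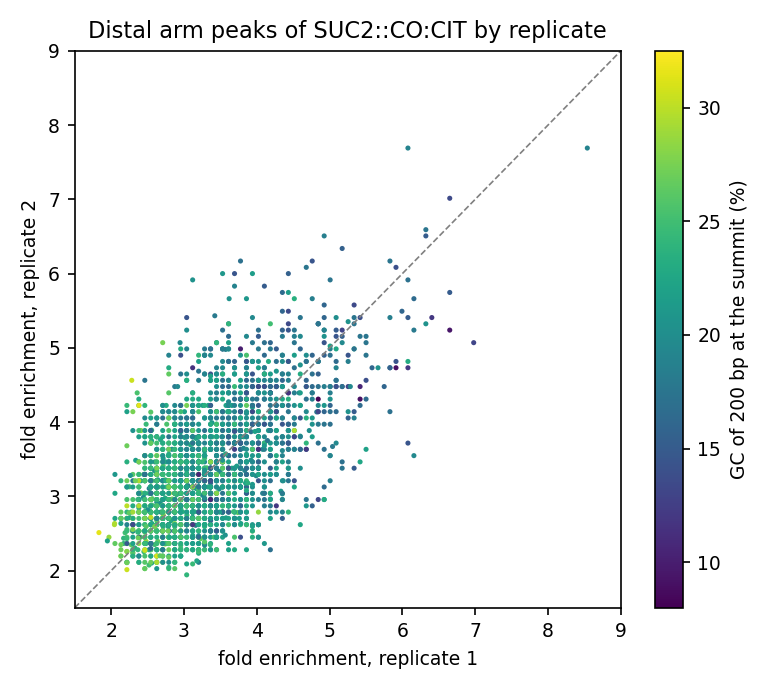
Fold enrichment of the 2405 distal arm peaks in replicate 1 (horizontal axis) and of the overlapping peak in replicate 2 (vertical axis), coloured by the GC content of 200 bp at the summit, with the line of equal values dashed. In replicate 1 the points lie between 1.83 and 8.54, the values fall in steps of whole fragments, and the points of highest enrichment are among those of low GC content.

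Being called in both replicates chose these peaks, so their enrichment and their q-values are a description. A −log10 q of at least 5 in both replicates was reached by 1730 of them, or 71.9%, beside 76.6% of all shared peaks, and a −log10 q of at least 10 by 562, or 23.4%, beside 27.8%. Before the overlap with replicate 2 was asked for, replicate 1 had 3078 peaks at these locations, of which 78.1% were shared, beside 80.1% of all peaks of replicate 1. This share rose with the strength of the peak, from 55.6% of those with a −log10 q from 3 to 5 to 95.7% of those at 10 or over, against 58.8% and 96.5% of all peaks in the same bins. The summits of the 2 replicates were a median of 54 bp apart, 70.7% lay within 100 bp of each other, and 90 pairs were over 500 bp apart.

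The distal arm peaks were narrow. Their median width was 335 bp in replicate 1, with the middle 50% between 241 and 503 bp, and 367 bp in replicate 2. A width of 800 bp or more was found for 204 of them, or 8.48%, beside 8.11% of all shared peaks. The widest lay between AT1G52110 and AT1G52120 and measured 3155 bp in replicate 1 and 3186 bp in replicate 2, with a fold enrichment of 4.93 and 5.07. The next lay between AT3G50040 and AT3G50050, with 2700 and 2421 bp, and between AT2G30660 and AT2G30670, with 2274 and 1305 bp. The summits of all 3 were AT-rich, with 14.5%, 15.5% and 18.0% GC.

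Over the shared peaks of other locations the same measures were close. The median fold enrichment of replicates 1 and 2 was 3.45 and 3.63 for peaks as far from genes but inside the central ranges, 3.37 and 3.38 for summits over 300 and up to 1000 bp upstream of a gene, 3.28 and 3.30 for those up to 300 bp upstream, and 3.12 and 3.21 for those inside genes. The median widths in replicate 1 were 416, 380, 312 and 284 bp in the same order. The distal arm peaks thus stood within the span of these classes. All classes came from the same 2 libraries, in which peaks are not replicates, and no test of the differences was made.

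The 10 strongest distal arm peaks, by the −log10 p of replicate 1, had 74 to 103 fragments at their summit in replicate 1 and 41 to 90 in replicate 2. The first lay at chr5:19414620-19415999, 3495 bp upstream of AT5G47940 and 1448 bp past the end of AT5G47950, with 103 fragments in replicate 1 and 90 in replicate 2. Its fold enrichment of 8.54 and 7.69 was the highest of the distal arm peaks in replicate 1 and not exceeded in replicate 2. The next lay at chr2:7807423-7808044, 1263 bp past the end of *WUS*, the homeobox gene that keeps stem cells in the shoot meristem, with 84 and 59 fragments. Its fold enrichment was 6.98 in replicate 1 and 5.07 in replicate 2, so the replicates differed most among the leading peaks at this site and at chr3:2919946-2920568. The latter lay between AT3G09505 and AT3G09510 and had 74 and 41 fragments. A peak at chr2:14636735-14637246 lay 2352 bp past the end of *PHB*, a homeodomain gene of leaf polarity and vascular patterning, with a fold enrichment of 6.65 and 5.24. Its 9.5% GC was among the lowest of the distal arm peaks, which reached down to 8%. The peaks between *MDO1* and AT1G56270, with a fold enrichment of 6.65 and 7.01, and between AT3G58560 and AT3G58570, with 6.32 and 6.51, kept their level in both replicates, unlike those at *WUS* and *PHB*. Fold enrichments of 6.65 and 5.75 were found between *WRKY65* and AT1G29290. At chr5:17395731-17396746 the summit lay 1429 bp upstream of *PHT1;6* and 3192 bp past the end of *PHT1;1*, both phosphate transporter genes, with a fold enrichment of 6.40 and 5.41. Fold enrichments of 6.32 and 6.59 were found between AT1G27570 and AT1G06103, and of 6.32 and 5.32 at 1048 bp upstream of *OZF2*. All 10 were below 25% GC, from 9.5% to 20.5%.

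The distance of the summit from the nearest gene had a median of 1627 bp, with the middle 50% between 1253 and 2265 bp and 10% over 3109 bp. The number fell with distance, with 1019 peaks, or 42.4%, at over 1000 to 1500 bp, 593 at over 1500 to 2000 bp, 522 at over 2000 to 3000 bp, 232 at over 3000 to 5000 bp and 39, or 1.62%, farther away. DNA at these distances becomes scarce in the same order, however. Per Mb of DNA in each class the numbers were 333, 355, 361, 360 and 485, so the density of peaks did not fall away from genes, and the last value rests on 0.0804 Mb. Enrichment was level as well, with a median fold enrichment from 3.12 to 3.45 in replicate 1 and from 3.13 to 3.30 in replicate 2 over the 5 classes. The Spearman correlation of the distance of the replicate 1 summit with the fold enrichment was −0.035 for replicate 1 and −0.022 for replicate 2.

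**Figure D2:**
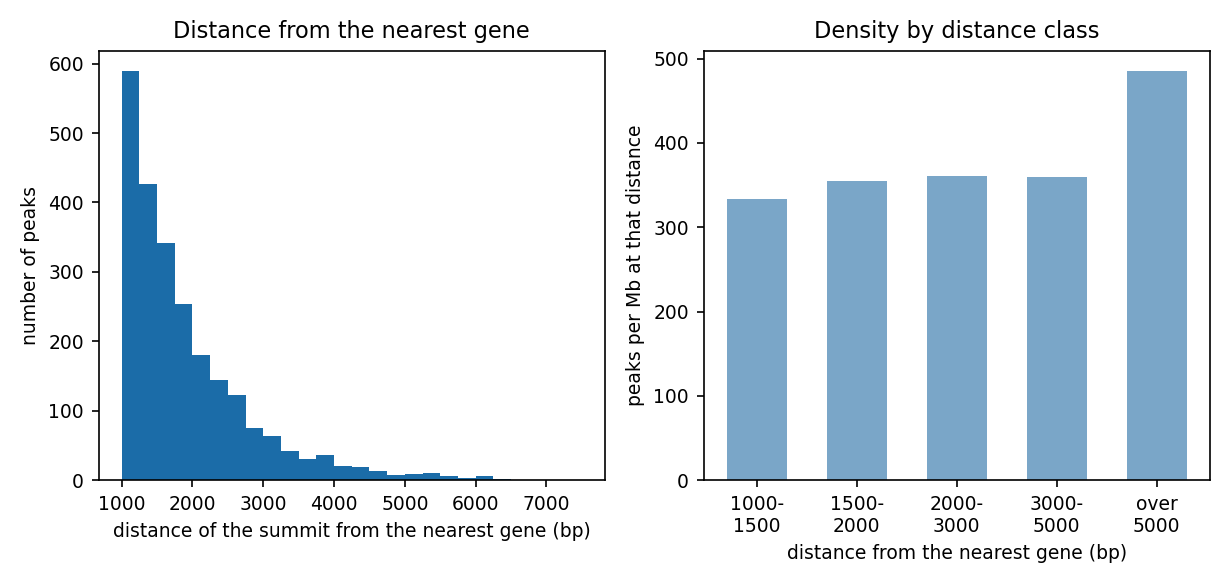
Left, number of distal arm peaks by the distance of their summit from the nearest gene, in bins of 250 bp. Right, distal arm peaks per Mb of arm DNA at the same distance from genes, in 5 distance classes, from 333 per Mb at over 1000 to 1500 bp to 485 per Mb over 5000 bp.

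Peaks on either side of the limit of the rule are given for comparison. A summit 1001 bp from *HA1*, a plasma membrane proton pump gene, had a fold enrichment of 2.96 and 3.21 and a summit 1002 bp from *UGT73C7* had 3.25 and 3.46. On the other side, a summit 999 bp from AT4G06090 had 3.20 and 3.13, and a summit 1000 bp from *RGP4*, which was left out, had 6.49 and 6.00. The 5 peaks farthest from genes lay 6153 to 7349 bp away. The farthest was 8175 bp upstream of *NCED3* and 7349 bp from *CID9*, with a fold enrichment of 2.38 and 2.79. Of the next, 3 lay upstream of *SWEET11* and 1 between *GTR2* and *TUB2*, with a fold enrichment of 3.45 and 3.97.

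The nearest gene was protein-coding for 2051 of the distal arm peaks, or 85.3%, a long noncoding RNA for 178, or 7.40%, a pseudogene for 91, a microRNA for 23 and a tRNA for 16. The summit lay upstream of this gene for 1604 peaks, or 66.7%, and past its end for 801. Start sides also took more of the distal DNA, and per Mb the numbers were 351 and 344. By the orientation of the 2 flanking genes, 913 peaks lay between divergent genes, 1283 between genes in tandem and 209 between convergent genes. These were 327, 362 and 379 peaks per Mb, with median fold enrichments in replicate 1 of 3.14, 3.20 and 3.28. By chromosome arm the density ran from 283 peaks per Mb on the right arm of chromosome 3 to 419 on the left arm of chromosome 4, where 52 peaks were counted.

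Distal arm peaks often shared an intergenic gap. On the arms 4145 gaps between neighbouring genes were longer than 2000 bp, so that they could hold such a summit, and 1558 of them, or 37.6%, held at least 1. In 1024 gaps there was 1 peak, in 348 there were 2, in 104 there were 3, in 59 there were 4, and 23 gaps held 5 or more. Of the 2405 peaks, 57.4% therefore had a neighbour in the same gap, at a median spacing of 1170 bp between summits. The share of gaps with a peak rose with gap length, from 13.2% at over 2000 to 3000 bp and 41.6% at over 3000 to 4000 bp to 64.6% at over 4000 to 6000 bp, 307 of 341 at over 6000 to 10000 bp and 95.7% of the longest.

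The gap of 12203 bp between AT3G23370 and *RIC5*, a gene for a partner of ROP GTPases, held 10 peaks, the most of any gap. Their fold enrichments ran from 2.71 to 4.52 in replicate 1 and from 2.87 to 5.24 in replicate 2, and their GC content from 16.5% to 22.5%. Several of their summit windows held closely similar stretches of sequence, so these 10 peaks did not lie on 10 unrelated sequences. The gap of 15523 bp between *NCED3* and *CID9* held 8 peaks, from 2.38 to 4.93 in replicate 1 and from 2.45 to 3.21 in replicate 2. *NCED3* encodes an enzyme that cleaves carotenoids in the step that limits ABA synthesis under drought. The strongest of the 8 in replicate 1 lay 4668 bp upstream of *NCED3* with 59 fragments there and 34 in replicate 2, so its lead rested on replicate 1. The gap upstream of *SWEET11*, a sucrose exporter gene of the phloem, held 7, from 2.55 to 4.35 in replicate 1 and from 2.54 to 4.23 in replicate 2. Those at chr3:18062093-18062280 and chr3:18062443-18062850 overlapped the same peak of replicate 2.

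Genes next to the distal arm peaks numbered 2947, of which 2473 were protein-coding, and both neighbours were protein-coding for 1692 peaks, or 70.4%. Over all protein-coding genes on the arms, 10.3% had a distal arm peak in a gap beside them. Because only a gap of over 2000 bp can hold one, the 6212 protein-coding genes next to such a gap are the nearer comparison, of which 39.8% had one.

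Of a list of flowering time genes, 19 of 78 on the arms, or 24.4%, had a distal arm peak beside them, which was 52.8% of the 36 next to a long gap. Of a list of ABA genes it was 11 of 56, or 19.6%, and 44.0% of 25. Of a list of vascular and phloem genes it was 13 of 31, or 41.9%, and 56.5% of 23. The lists had longer gaps, with medians of 3484, 3450 and 4199 bp against 3109 bp over all protein-coding genes. Per Mb of distal DNA in those gaps, the numbers of peaks were 341, 411 and 370, against 350 over all protein-coding genes. Counted by the DNA available, the lists thus held peaks at about the rate of all genes, from 27 to 38 peaks each.

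*FT* had 3 distal arm peaks. The outer upstream peak lay at chr1:24325612-24326064, 5599 bp before the gene, with 41 fragments in either replicate and a fold enrichment of 3.45 and 3.55. The inner upstream peak at chr1:24329431-24329600 was 1873 bp before the gene and weaker, with 33 and 28 fragments. The peak at chr1:24336927-24337342 was 3030 bp past its end, with 36 and 30 fragments, a fold enrichment of 3.04 and 2.62, and 3 TGTG or CACA words in 200 bp. By strength in replicate 1 they ranked 841, 1757 and 1396 of the 2405, so *FT* was not next to the leading distal peaks. The paper describes a region named CBS at a similar distance upstream of *FT* as the inner peak. It reports that the CBS peak was not significant in its own ChIP-seq but was found in another published CO ChIP-seq. By ChIP with quantitative PCR it also found weak binding of the fusion at the CBS, which was lower in the ABA-deficient mutant. Whether the inner peak lies in the CBS was not tested. The main CO site of the paper is in the proximal *FT* promoter, too near the gene for a distal arm peak.

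Some of the listed repressors that act against *FT* were flanked as well, whereas *TOE2*, *TOE3*, *SNZ*, *TEM1*, *FLC* and *SVP* had no distal arm peak beside them. The flowering time list held 341 peaks per Mb of distal DNA against 350 over all protein-coding genes, so the peaks below are a description. *TOE1*, an AP2-like repressor of flowering, had 4 peaks from 2975 to 6204 bp upstream, the strongest with 61 fragments in replicate 1 and 53 in replicate 2 and a fold enrichment of 5.09 and 4.56. *SMZ*, of the same family, had 1 peak 1380 bp upstream with a fold enrichment of 5.01 and 4.31, and *AP2* had 1 with 27 and 31 fragments. *CDF3*, a Dof factor gene of the family that represses *CO*, had 1 peak 2244 bp upstream with 5.01 and 4.48. *TEM2*, a repressor of *FT*, had 1 peak of 2.05 and 2.63, among the weakest in replicate 1.

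The flanked genes of the photoperiod pathway and of floral identity had mostly weaker peaks. *FKF1*, which encodes a blue light receptor that degrades CDF proteins, had a peak 2364 bp upstream with a fold enrichment of 4.35 and 3.97 and a weaker peak 1668 bp upstream, at 3.12 in replicate 1, that overlapped the same peak of replicate 2. *ZTL*, its relative, had 1 of 3.45 and 2.96 that also lay upstream of the proton pump gene *AHA3*. *GI* had 1 peak 1235 bp upstream with 2.87 and 2.54. *AP1*, which specifies floral meristems, had 2 peaks, with 2.46 and 2.79 in replicate 1 and 3.04 and 2.87 in replicate 2. *FUL*, *AGL42*, *SPL4*, *ATC* and *FDP* had replicate 1 fold enrichments from 2.63 to 3.04, and *TFL1*, which opposes *FT* at the shoot apex, had 1 peak past its end of 3.73 and 3.41. *MIR156A*, a microRNA gene of the juvenile phase, had 3.62 and 4.14, and the *MIR172A* and *MIR172B* peaks, near microRNA genes that target AP2-like messages, had 2.55 and 3.20 in replicate 1.

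Among the ABA genes, *NCED5*, a relative of *NCED3*, had 5 peaks upstream and 3 past its end. The strongest of them lay 2974 bp upstream with 62 fragments in replicate 1 and 60 in replicate 2, a fold enrichment of 5.17 and 5.15. *NCED2* had 3 peaks upstream and *NCED6* had 3 on both sides, with 2.38 to 4.19 in replicate 1. *CYP707A1* and *CYP707A3*, genes of ABA breakdown, had 4 peaks each. The strongest lay past the end of *CYP707A1*, with a fold enrichment of 4.35 and 5.75 and of 5.01 and 3.55, so that the replicates ranked them in opposite order. *ABA3*, needed for the last step of synthesis, had 2 peaks in replicate 1 that overlapped the same peak of replicate 2. Of signalling genes, the receptor gene *PYL2*, the kinase gene *OST1* and the transcription factor gene *ABI3* had 1, 1 and 2 peaks, with replicate 1 fold enrichments of 2.63 to 3.78, and the responsive gene *RD22* had 1.

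Among the vascular and phloem genes, *PHB* had the strongest peak of replicate 1, given above. *CLE44*, which encodes a peptide signal from phloem to cambium, had a peak 3737 bp upstream with a fold enrichment of 5.50 and 4.31. *KAN1*, a gene of abaxial identity, had 5 peaks from 3245 to 6961 bp upstream at only 2.52 to 3.04 in replicate 1 and 2.96 to 3.21 in replicate 2. *SUC2*, whose promoter also drives the transgene, had peaks 6188 and 9744 bp upstream, with 3.16 and 2.61 and with 3.94 and 6.00. Whether the promoter piece in the transgene reaches that far is not given in the sources used here. *SUC1* had 4 peaks from 2.38 to 3.04 in replicate 1, of which those at chr1:27045935-27046230 and chr1:27046599-27046876 overlapped the same peak of replicate 2. *OPS* and *BRX*, needed for protophloem, had 2 and 1, and *REV*, *PHV*, *ATHB-8* and *GLT1* had 1 to 3 each.

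The distal arm peaks were more AT-rich at their summits than around them. The GC content of 200 bp at the summit had a median of 21.5%, with the middle 50% between 19% and 24% and a range from 8% to 32.5%. It was below 25% at 2008 peaks, or 83.5%, below 20% at 791, or 32.9%, and 30% or more at 18. The mean was 21.2 ± 3.61% (SD over 2405 peaks), against 28.8% in windows 300 bp to either side, 28.9% at 1000 bp, 29.2% over all distal arm DNA and 36.0% over the genome. The surroundings thus had the GC content of distal arm DNA, below that of the genome, and the further drop was local to the summits. Low GC at the summit was shared with the other classes, whose median GC was 20% for distal peaks of the central ranges and 21.5% for summits up to 300 bp upstream of a gene. Stronger peaks had lower GC, with a Spearman correlation of −0.53 between the fold enrichment and the GC content of replicate 1. Wider peaks were stronger, at 0.45 between the fold enrichment and the width of replicate 1. With the fold enrichment of replicate 2 against the same replicate 1 GC content and width, the values were −0.45 and 0.35. The points of these correlations come from the same libraries, and input coverage of AT-rich DNA was not analysed here.

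**Figure D3:**
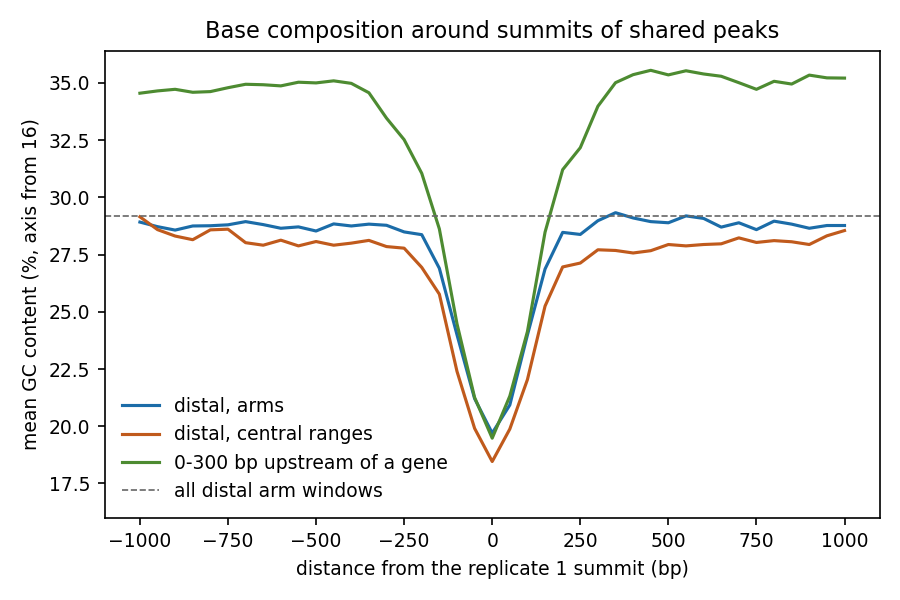
Mean GC content against distance from the replicate 1 summit, for the distal arm peaks, the distal peaks of the central ranges and shared peaks up to 300 bp upstream of a gene, with the mean of all distal arm windows dashed. The curve of the distal arm peaks falls from 28.8% at 300 bp to 19.7% at the summit, and the vertical axis starts at 16%.

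Not every AT-rich window of distal arm DNA held a shared summit. In windows of 200 bp, distal arm DNA made up 34480 windows, or 5.8% of the genome. Of these, 7.01% held a shared summit, beside 2.84% of all windows and 0.566% of arm windows inside genes. Other DNA outside genes was near the distal arm share, with 6.33% in distal DNA of the central ranges. On the arms it was 6.82% at 1 to 300 bp and 7.77% at over 300 and up to 1000 bp from a gene. Among distal arm windows below 25% GC the share was 27.5%, or 1829 of 6654, and in windows of 500 bp below 25% GC it was 54.1%. A window without a summit can still lie within a peak. By GC content the share of 200 bp windows was 43.8% at 10 to 15%, 40.0% at 15 to 20%, 23.8% at 20 to 25%, 4.43% at 25 to 30% and 0.454% at 30 to 35%. The share with a summit thus fell steeply as GC content rose. Of the windows below 25% GC in other locations, the shares with a shared summit were 26.6% in the central ranges, 31.2% at over 300 and up to 1000 bp from a gene, 34.7% at 1 to 300 bp from a gene and 27.0% inside genes.

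**Figure D4:**
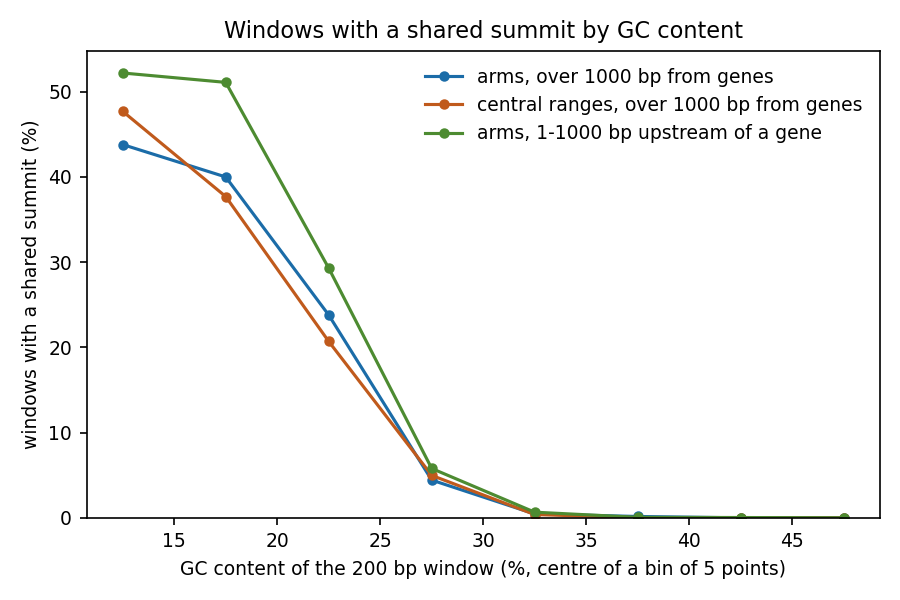
Share of 200 bp windows that held a shared summit, against the GC content of the window in bins of 5 points (bins of at least 100 windows), for distal arm DNA, distal DNA of the central ranges and arm DNA 1 to 1000 bp upstream of genes. The distal arm share falls from 43.8% at 10 to 15% GC to 0.454% at 30 to 35%.

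Words with the TGTG core were less frequent at the summits than beside them. TGTG and CACA were counted in 100 bp around the summit and in 100 bp centred 300 bp to either side, and the mean was 0.436 words at the summit against 0.678, a ratio of 0.643. With the summits of replicate 2 the ratio was 0.663, over all shared peaks 0.652 and over summits up to 300 bp upstream of a gene 0.621. In 200 bp, 57.0% of the distal arm peaks held TGTG or CACA, against 71.2% of all distal arm windows and 58.0% of those below 25% GC. The distal arm peaks thus held the word about as often as distal DNA of like base composition.

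The same held for the other words searched on both strands. TGTGGT was found at 4.45% of the distal arm peaks, 8.56% of all distal arm windows and 5.03% of those below 25% GC. TGTGAT was found at 11.2%, 14.4% and 13.0%, CCAAT at 26.5%, 34.7% and 26.6%, the G-box CACGTG at 0.79%, 3.21% and 0.857%, and ACGTG, the core of the element bound by ABA-responsive bZIP factors, which lies within CACGTG, at 7.73%, 15.9% and 7.12%. Runs of bases differed more. A run of at least 8 A or at least 8 T was found at 43.1% of the distal arm peaks against 34.5% of the distal arm windows below 25% GC, and 4 TA units in a row at 14.4% against 21.2%. Among these AT-rich windows alone, a run of A or T was found in 40.7% of those with a shared summit and 32.2% of those without, and TA units in 15.7% and 23.3%. Over all shared peaks, a run of A or T was found at 44.3% and TA units at 12.2%. At summits up to 300 bp upstream of a gene it was 49.9% and 11.3%, so these values were not particular to the distal arm peaks. No match was taken as a binding site, and a window without a word says only that these letters are not in it.

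Exact repeats of 30 bases were uncommon, and repeats whose copies differ in sequence were not searched for. In 128 of the distal arm peaks, or 5.32%, at least 50% of the words of 30 bases within the 200 bp occurred more than once in the genome. This was so for 8.09% of distal peaks in the central ranges and 0.794% of summits up to 300 bp upstream of a gene. No such repeated word was found at 77.6% of the distal arm peaks, beside 48.6% and 87.7%. The local background exceeded that of the genome by over 5% at 83 distal arm peaks, or 3.45%, so nearly all enrichments were measured against the genome-wide level.

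In *SUC2::CO:CIT aba1-6*, peaks at these locations were nearly absent from the lists. Of the 2405 distal arm peaks, 0 overlapped a peak of *SUC2::CO:CIT aba1-6* replicate 1, which allows a share of up to 0.125%, and 1 overlapped a peak of replicate 2. Over all shared peaks the overlap was 0.0593% and 0.083%, so the distal arm peaks were at the low rate of the rest. Within 500 bp it was 0 and 4 of them, beside 0.243% of all shared peaks in either replicate.

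The overlapped peak lay upstream of *GI*, which encodes a protein of the photoperiod pathway that promotes *CO* and *FT* expression. In *SUC2::CO:CIT* it had 34 fragments in replicate 1 and 29 in replicate 2. The *SUC2::CO:CIT aba1-6* replicate 2 peak at chr1:8060322-8060969 had 12 fragments and a fold enrichment of 7.31, with its summit 129 bp from that of *SUC2::CO:CIT* replicate 1. The 200 bp at its summit had 32% GC, against 21.0% at the *SUC2::CO:CIT* summit. Fold enrichments of libraries with such unequal backgrounds are not on the same scale, so these were not compared.

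Taking each library's whole list, 3078 of 21054 peaks of *SUC2::CO:CIT* replicate 1 were distal on the arms, or 14.6% with a Wilson interval of 14.1 to 15.1% at 95% confidence, and 3412 of 22724 of replicate 2, or 15.0% with 14.6 to 15.5%. In *SUC2::CO:CIT aba1-6* they were 1 of 168, or 0.595% with 0.105 to 3.29%, and 5 of 258, or 1.94% with 0.831 to 4.46%. The groups did not overlap, and the means were 14.8 ± 0.28% and 1.27 ± 0.949% (SD, n = 2 libraries each), a difference of 13.6 percentage points with a two-sided exact permutation p of 0.333, the smallest that 2 against 2 libraries allow. Restricted to a −log10 q of 5 or more, the shares were 13.8% and 14.3% in *SUC2::CO:CIT*. For *SUC2::CO:CIT aba1-6* they were 0 of 27, which allows up to 11.1%, and 3.57%, the last being 1 peak of 28. The lower share was not particular to the arms. Peaks as far from genes in the central ranges made up 10.3% and 9.88% against 2.98% and 2.71% in the mutant. At the stricter limit these central shares were alike, with 11.1% and 10.6% against 11.1% and 10.7%. The last 2 values rest on 3 peaks each, and the central shares were not tested.

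**Figure D5:**
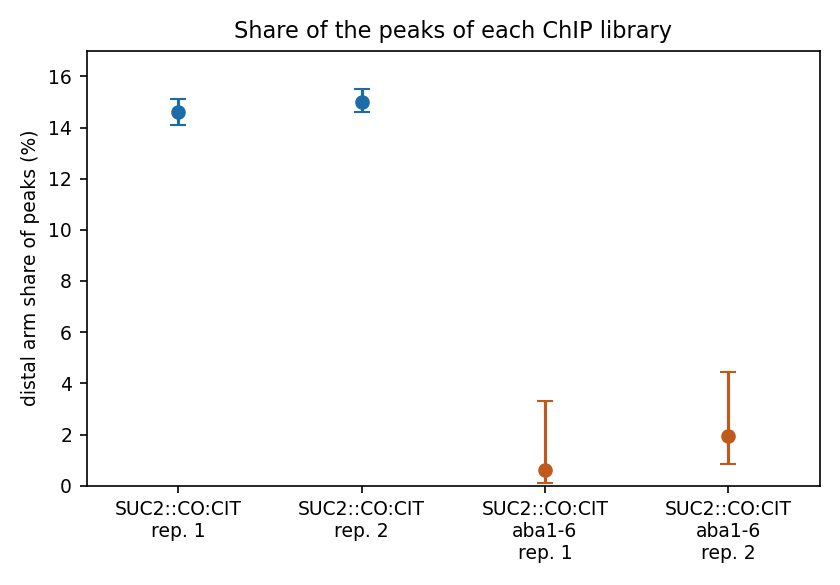
Share of the peaks of each ChIP library with a summit over 1000 bp from genes on the chromosome arms, with Wilson intervals at 95% confidence, on an axis from 0. The 2 *SUC2::CO:CIT* libraries stand at 14.6% and 15.0% and the 2 *SUC2::CO:CIT aba1-6* libraries at 0.595% and 1.94%.

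The depth of the libraries moved with the genotype. The genome-wide background, 11.2 and 10.8 fragments in the *SUC2::CO:CIT* libraries, was only 3.57 and 0.774 fragments in the libraries from *aba1-6* plants, whose weakest peaks had 11 and 5 fragments. Scaled to those backgrounds, the distal arm peaks would have had a median of 12.1 and 2.63 fragments from the values of replicate 1 and 12.5 and 2.71 from those of replicate 2. These scaled values come from peaks chosen for being called in both *SUC2::CO:CIT* libraries, and are a description only. The mutation, the chromatin yield and the depth cannot be told apart with these libraries.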

How the data were processed

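The members, gene lists and tests were chosen with earlier results of these data known. In the study, reads were trimmed with fastp and aligned with Bowtie2 to the TAIR10.1 assembly, after which MACS2 was run by the authors on every ChIP replicate separately with input as background. Versions of these programs are not given in the sources used here, and the lists precede the study's reproducibility and blacklist filters. Of the deposited columns, the fold enrichment is a ratio of summit to background fragments in which 1 was added to either term. The −log10 p-values and −log10 q-values, as deposited, come from MACS2, the latter corrected for multiple tests within a library. The score that the authors deposited repeats the −log10 p and was not used. The remaining deposited column, of another kind, gave the summit position as an offset from the peak start.

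Whole fragments and backgrounds were recovered from each fold enrichment and Poisson p-value, and the recovery was tested on simulated data. Since the lists hold no read totals, the background stands for depth. Groups were taken from the sample labels. Distances were measured to gene and pseudogene features on the 5 nuclear chromosomes. Windows of 200 bp tiled the genome, and those below 25% GC were called AT-rich. The distal arm share was compared between genotypes by an exact permutation test of the 4 libraries, a test of the spread between these libraries only. Peaks named in the text were the 10 strongest, the 5 farthest, the widest 3, those at the distance limit, those in the 2 fullest gaps, those with an *aba1-6* peak and those next to a listed gene, and *SWEET11* was also named for its gap. The listed genes *RAB18*, *CDF1*, *CDF5* and *VND6* were not matched to a symbol, and *MAF1* and *FLM* name the same gene. Alternatives varied the annotation, distance, overlap, q-value, ranges, windows and libraries. Computations used pandas 2.3.3, scipy 1.17.1 and numpy 2.4.6 under Python 3.11.15, and figures used matplotlib 3.10.9.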

Additional observations from a re-analysis of the deposited data

How the results depend on the processing

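The number of distal arm peaks followed the rule closely, with 4611 over 500 bp from genes, 793 over 2000 bp and 562 at a −log10 q of at least 10 in both replicates, against 2405. From the list of 1 library alone it was 3078 to 3412. The number was within 1.5 times under the other annotations, overlaps and ranges. The median distance was 1673 bp without pseudogenes, 1756 bp with protein-coding genes only, 1571 bp at the q limit of 10 and 1614 bp with the peaks of replicate 2, and 1622 to 1623 bp from either library alone. The median width was 321 bp at an overlap of 50%, 367.5 bp at a −log10 q of 5, 515.5 bp at 10 and 354 bp with replicate 2, and 299.5 to 306 bp from either library alone. The median GC content was 21.0% at an overlap of 50%, 20.5% and 18.5% at the q limits of 5 and 10, 20% in 100 bp and 25% in 500 bp, and 22.0 to 22.5% from either library alone. The median fold enrichment was 3.45 and 4.13 at the q limits of 5 and 10, 3.21 with replicate 2 and 3.40 without the pseudocount, and 3.04 from either library alone. Many of these shifts were small but exceeded the SD of the medians of the 2 replicates. The shift to the peaks of replicate 2 exceeds that SD by construction wherever the medians differ. The higher enrichment at stricter q-values follows from the selection. The share of AT-rich windows with a shared summit was 40.5% below 20% GC, 12.7% below 30% GC, 54.1% in windows of 500 bp and 21.6% at the q limit of 5, and the TGTG ratio was 0.687 in 200 bp. Distal arm peaks with an *aba1-6* peak were 4 within 500 bp, and 0 to 1 when either *aba1-6* library was left out.

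The difference in distal arm share between genotypes was 12.3 percentage points at the q limit of 5 and 14.4 without pseudogenes, and 12.9 to 14.2 with any 1 library left out. With the replicate numbers as a block it was 13.6 percentage points, from 14.0 and 13.1 within the numbers, with an exact sign-flip p of 0.5, the smallest that 2 pairs allow. Nothing in the labels ties libraries of the same number to each other. The depth of the *aba1-6* libraries limits every statement about their peaks.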

Other observations

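The *SUC2::CO:CIT aba1-6* lists held 5 distal arm peaks that overlapped none of the 2405. In replicate 1 there was 1, between AT4G24060 and AT4G24070, with 17 fragments, a fold enrichment of 3.94 and 36.5% GC. In replicate 2 there were 4. The strongest lay between *PAL1*, a gene of phenylpropanoid synthesis, and AT2G08850, 2666 bp from the nearer of them, with 9 fragments, a fold enrichment of 5.63 and 27.0% GC. A peak of 6 fragments between AT1G31258 and *ZIP10* had its summit 240 bp from that of a *SUC2::CO:CIT* distal arm peak without overlapping it, and those beside AT1G69160 and *TMO6* had 5 and 6 fragments. The −log10 q was 3.11 for the peak of replicate 1 and 3.74 for that beside *PAL1*. It was only 1.12 beside *ZIP10*, 1.12 beside *TMO6* and 0.715 beside AT1G69160, so these were weakly called. The GC content of the 5 peaks, from 27.0% to 37.5%, was at each of them above the median of 21.5% of the *SUC2::CO:CIT* distal arm peaks. No test was made on so few peaks.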
